A study of Rattus norvegicus with 24 samples.

Results

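The 6 striatum libraries and the 6 whisker follicle libraries of saline (SA) self-administered rats were compared, to describe what separates and what joins the 2 tissues before any drug. The rats were male Sprague–Dawley rats that first learned to press a lever for food pellets, then underwent surgery, and then received saline, and no methamphetamine (MA), as an infusion for each press of the active lever. No transgene or other allele is named. Both tissues came from the same animals, but the table does not tie a library to a rat, so libraries are named by the index of their column, as in striatum library 2, and no library of one tissue was paired with one of the other. A row of the table, in most cases 1 gene, was taken when its mean FPKM (the number of fragments of a transcript, scaled to its length and to the mapped fragments of the library) was at least 1 in striatum or in whisker follicle. This kept 11509 of 17711 rows, of which 8157 reached a mean of 1 in both tissues, 2411 in striatum alone and 941 in whisker follicle alone. At the edge of the rule, Fam101a (mean of 1.00 FPKM in striatum) and Izumo1 (1.002 in follicle) lay just inside, and Npy2r (0.999 in striatum) and Abhd12b (0.9974 in follicle) just outside.

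The striatum is the input nucleus of the basal ganglia. Most of its neurons are medium spiny neurons, GABA-releasing cells that carry dopamine receptors and are embedded among astrocytes, oligodendrocytes and microglia. A whisker follicle is a large sensory hair follicle of the snout: matrix cells at its base divide and turn into the hair shaft, which fills with hair keratins and the keratin-associated proteins that crosslink them, while concentric root sheaths with keratins of their own surround the shaft. Brain and hair follicle epithelium both derive from ectoderm, and the study asked whether the follicle can stand in for the brain tissue that cannot be sampled in living donors.

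The labels matched their tissues in all 12 libraries: the 25 rows of a list of medium spiny neuron genes summed to 3668 to 8805 FPKM in striatum and to 38.2 to 73.8 in follicle, and the 8 rows named for keratin-associated proteins summed to 0.680 to 86.7 FPKM in striatum and to 105300 to 353500 in follicle. The number of reads behind a value is not known. Spearman's rho over the 11509 rows, across genes, was 0.958 to 0.990 between striatum libraries, 0.885 to 0.987 between follicle libraries and 0.367 to 0.449 between the tissues. A pair of libraries carried transcripts of the other tissue. In striatum library 2, the shaft gene Krtap7-1 stood at 38.6 FPKM against 0.306 to 1.05 in the other 5, and 50 of 77 abundant follicle rows, each at least 100-fold higher there, had their highest striatal value there (median of 0.0407% of their follicle mean, against 0.00292% to 0.00364% in the other 5). In follicle library 5, Mbp stood at 49.9 FPKM against 4.22 to 5.80, and 61 of 67 striatal rows chosen alike had their highest follicle value there (median of 0.618% of their striatal mean, against 0.0340% to 0.0595%). How these transcripts came there was not tested. Follicle library 0 had the lowest correlations with its group and listed Bc1 and the joined row of Krt31, Krt33a, Krt33b and Krt34 at 0, although the other 5 follicle libraries exceeded 10 FPKM in both.

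**Figure D1:**
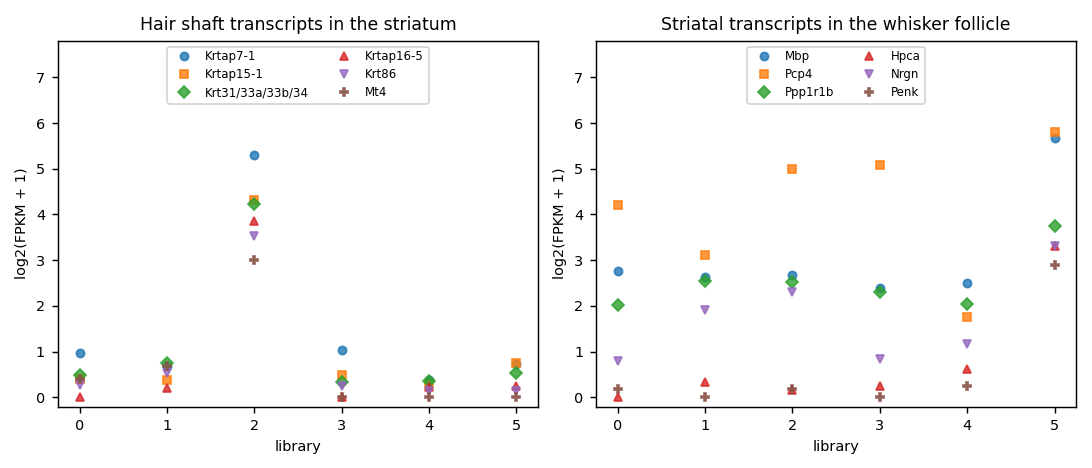
FPKM of 6 hair shaft rows in the 6 striatum libraries (left) and of 6 striatal rows in the 6 follicle libraries (right), on a log2(FPKM + 1) axis. Each symbol is 1 row in 1 library, and the high values gather in striatum library 2 (Krtap7-1 at 38.6 FPKM) and follicle library 5 (Mbp at 49.9 FPKM), while Pcp4 was spread over several follicle libraries.

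The tissues spent their transcripts differently. The 10 most abundant rows took 6.47% to 9.53% of the summed FPKM of a striatum library (median 7.05%) and 28.2% to 44.0% of that of a follicle library (median 33.2%), so the groups did not overlap (two-sided exact permutation test, p = 0.0021645, the smallest that 6 against 6 libraries allow). In striatum 544 to 597 rows were needed to reach 50% of the sum, and in follicle 16 to 44. A mean of at least 1000 FPKM was reached by 20 rows in striatum and 129 in follicle, 7 of them the same rows, and all 15 of the most abundant follicle rows had a mean above that of any striatal row. The 15 most abundant rows of the tissues had 0 rows in common, the 100 most abundant 17 and the 1000 most abundant 440.

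The most abundant row of the striatum was Mbp, the myelin basic protein of oligodendrocytes, which ranged from 3832 to 10880 FPKM (median 5108). Follicle values of Mbp were 4.22 to 49.9 (median 5.29), so that every striatum library lay far above every follicle library. The ratio of mean FPKM was 503, and 1164 without striatum library 2 and follicle library 5, and the difference was 9.41 ± 0.50 (SE) on the log2(FPKM + 1) scale (limma, adjusted p = 3.79e-10). Neuronal rows came close behind. Pcp4, a small calmodulin-binding protein, had a striatal median of 2247 FPKM against 24.3 in follicle, and Ppp1r1b, which encodes DARPP-32, the dopamine-regulated phosphatase inhibitor of medium spiny neurons, 2037 against 4.34. Bc1, a short noncoding RNA of neurons that represses translation, ranged from 1106 to 3073 FPKM in striatum and from 0 to 122 in follicle. Camk2n1, an inhibitor of calcium/calmodulin-dependent kinase II, had a mean of 1662 ± 359 FPKM (SD, n = 6), the calcium sensor Hpca 1440 ± 471, and Nrgn, a calmodulin-binding protein of dendrites, 1369 ± 534. From the astrocytic and shared side came Mt3, a brain metallothionein (1850 ± 214), S100b (1250 ± 163), the creatine kinase Ckb (1626 ± 274) and Zwint (1241 ± 207).

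For 3 of these 15 rows, the follicle level was as high or higher. Apoe, the lipid carrier of astrocytes and of many peripheral cells, ranged from 3011 to 4314 FPKM in striatum and from 3228 to 8871 in follicle. The groups overlapped, and the difference of Apoe, -0.77 ± 0.29 (SE) on the log2(FPKM + 1) scale, did not reach the 2-fold limit. Cst3, a secreted protease inhibitor, was 2.82-fold higher in follicle by mean FPKM, with overlapping groups (1908 to 3385 against 2285 to 11060, limma, adjusted p = 0.006045). Tmsb4x, the actin-binding thymosin beta 4, was 5.29-fold higher in follicle, from 1880 to 2274 FPKM against 3184 to 19220, with no overlap. These 3 directions depend on the scaling of the table: with each library scaled to an equal sum Apoe and Cst3 turned to higher in striatum, while Tmsb4x fell under the 2-fold limit (-0.42), and with quantile normalization all 3 turned.

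In the whisker follicle the most abundant row was Krtap7-1, a keratin-associated protein of the hair shaft, at 63420 to 187900 FPKM (median 125400). It was the highest row in follicle libraries 0 to 4 and Lgals7 was in library 5, and these leading rows took 5.17% to 17.2% of the summed FPKM. In the 5 striatum libraries other than library 2 Krtap7-1 did not exceed 1.05, and the difference was -15.28 ± 0.71 (SE) on the log2(FPKM + 1) scale (limma, adjusted p = 9.445e-11). Krtap15-1 followed with a median of 55490 FPKM, and Krtap16-5 (23590) and Krtap14 (14960) belonged to the same class. Hair keratins, the filaments of the shaft, supplied Krt86 (8437 to 42180 FPKM, median 19390) and the joined row of Krt31, Krt33a, Krt33b and Krt34 (median 19010), in which reads of 4 near-identical genes cannot be told apart. The root sheaths supplied Krt17, a keratin of the outer root sheath and companion layer (15040 to 52420 FPKM against 2.21 to 6.62 in striatum), and Krt71, a keratin of the inner root sheath (9548 to 18300 against 18.99 to 30.9). Lgals7, a galectin of stratified epithelia, had a follicle median of 31830 FPKM and a striatal median of 0.415. The calcium-binding proteins S100a6 (35240) and S100a3 (31650, a protein of the hair cuticle), the metallothionein Mt4 of stratified epithelia (20910) and the cornified envelope precursor Sprr1a (16210) had follicle medians of the same order. The ribosomal protein rows Rpl41 (median of 23950 FPKM) and Rps14 (13910, the second row of that symbol) completed the 15. They were also abundant in striatum, at medians of 802 and 818, and rows of ribosomal proteins share reads with near-identical copies elsewhere in the genome, so their values are uncertain. All 15 rows were higher in follicle. Several of these rows are short transcripts, for which FPKM can be large, and the part of length in their rank was not tested.

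**Figure D2:**
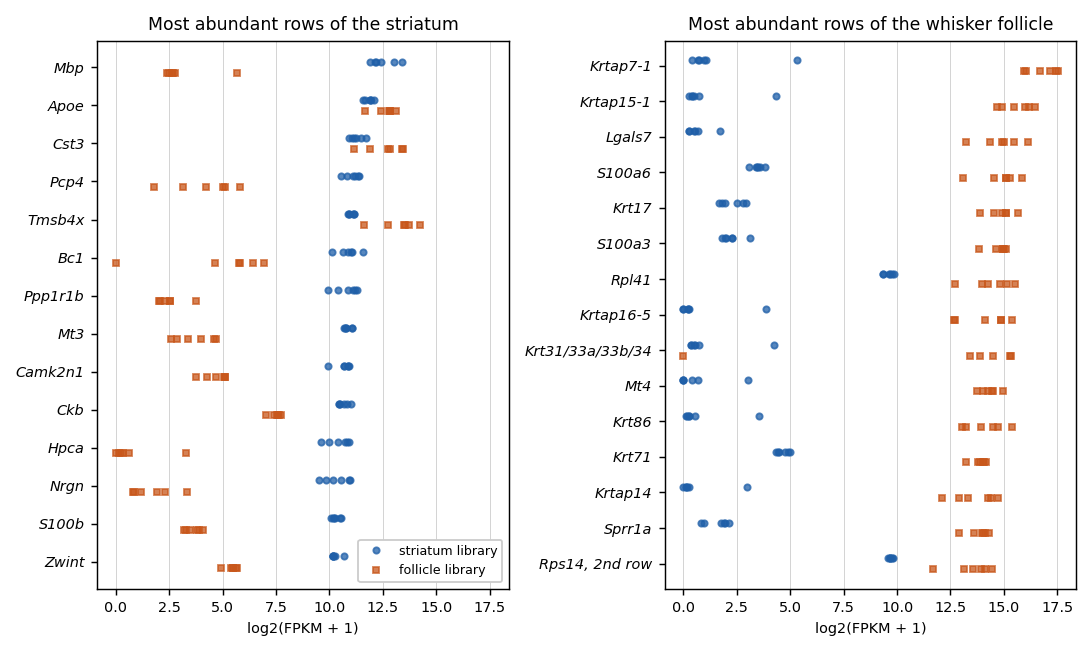
FPKM of 14 of the 15 most abundant rows of the striatum (left) and of the 15 of the whisker follicle (right) in each library, on a log2(FPKM + 1) axis, with circles for striatum and squares for follicle libraries. Apoe, Cst3 and Tmsb4x are the striatal rows whose follicle values lie at or above the striatal ones, and Rpl41 and Rps14 are the follicle rows that are also abundant in striatum.

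Level differences between the tissues were tested by limma on log2(FPKM + 1) over all 11509 rows, and a row was called when its Benjamini-Hochberg adjusted p was under 0.05 and it differed at least 2-fold on that scale. In striatum 4047 rows were higher (35.2% of those tested) and in follicle 2756 (23.9%), while 4706 (40.9%) were not called. In 4541 rows (39.5%) every striatum library lay above every follicle library, and in 3275 rows (28.5%) the reverse held. The ratio of mean FPKM was at least 100 in favour of the striatum for 1054 rows and in favour of the follicle for 438. It was at least 1000 for 418 and 247 rows. Whether the authors scaled the values between libraries is not given in the sources used here. The summed FPKM was 348717 to 371477 in striatum and 1005812 to 1524572 in follicle libraries, yet the deposited values were close to a common scale by their medians, at 0.989 to 1.03 relative to the mean over all 24 libraries, and the median difference of all rows was 0.30 in favour of striatum on the log2(FPKM + 1) scale. Other scalings move it to 0.35 (common median), -0.04 (quantile normalization) or 1.74 (each library scaled to an equal sum). Under the last of these 8325 rows were higher in striatum and 1134 in follicle, and under quantile normalization 3132 and 3189, so the balance of the counts follows the scaling, and rows that differ by less than that shift have no firm direction. A lower level in bulk RNA can mean fewer cells of a type or less RNA per cell, and these cannot be told apart.

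**Figure D3:**
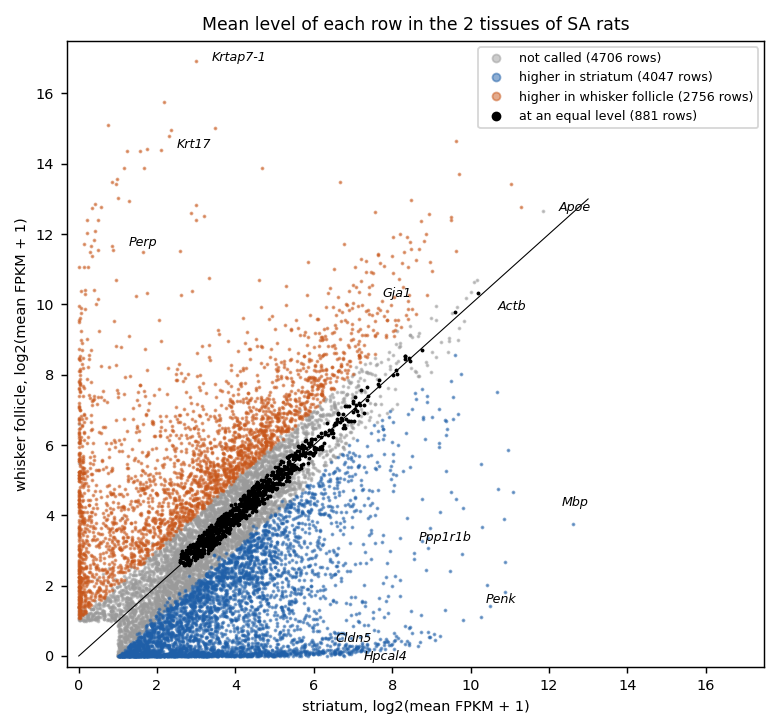
Mean FPKM of each of the 11509 rows in striatum (horizontal) and whisker follicle (vertical), both as log2(mean FPKM + 1), with the line of equal values. The 881 rows at an equal level, a part of the rows not called, lie along the line, and the rows along the lower and left edges are those near 0 in 1 tissue.

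A row was counted as restricted to a tissue when every library of that tissue had at least 1 FPKM and every library of the other less than 0.1. This held for 403 rows in striatum (3.5%) and 175 in follicle (1.52%). Such rows were of modest level in striatum, where 100 of them had a mean of at least 10 FPKM and 1 of at least 100. In follicle 117 and 30 did. The limits must hold in every library, so the counts can rise when any library is left out. Leaving out 1 library gave 405 to 604 and 176 to 201, highest without follicle library 5 and without striatum library 2. Without both of these the counts were 617 and 209. The part of traces of the other tissue in these counts was not tested. With each library scaled to an equal sum the counts were 673 and 98. Of the 403, 199 were listed at exactly 0 in all 6 follicle libraries, and of the 175, 81 in all 6 striatum libraries. An exact 0 can be a failed estimate, since rows of genes that every cell uses, such as Tpi1 of glycolysis, also stood near 0 in both tissues.

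The striatal row with the highest restricted level was Hpcal4, a neuronal calcium sensor of the hippocalcin family, at 57.8 to 176 FPKM (median 105) and listed at 0 in every follicle library. Next came Cldn5, the tight junction claudin of brain endothelium, at 66.1 to 102 FPKM (median 76.9) and also listed at 0 in follicle. Ttc9b, whose product carries tetratricopeptide repeats, had a median of 55.2 FPKM and Lix1 one of 49.0. Receptors and channels followed: Cacng4, an auxiliary subunit of AMPA receptors (31.4 to 64.8 FPKM), the adrenergic receptor Adra2c (27.6 to 57.5), the adenosine receptor Adora1 (28.2 to 51.1) and the serotonin receptor Htr2c (22.7 to 42.6). The first 3 of these 4 were listed at 0 in follicle, and Htr2c at 0 in 5 libraries and at 0.0458 in library 5. Crmp1, a cytoskeletal protein of growing axons, had a mean of 39.0 ± 5.19 FPKM, the RNA-binding protein Celf3 35.1 ± 7.07, Tac3, the precursor of neurokinin B, 33.9 ± 4.70, Mpped1 33.1 ± 6.14 and Brinp1 32.2 ± 14.6. A joined row of ribosomal RNA (Rn18s, Rn45s and Rn5-8s) also met the limits, at 21.4 to 55.4 FPKM in striatum and 0 in follicle. Ribosomal RNA is present in every cell and was mostly removed by polyA capture, so this row was not taken as a mark of the striatum.

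Of the follicle rows, LOC100361793, which the RefSeq gene table names Krtap12-1, had the highest restricted level, at 1202 to 2931 FPKM (median 2210). LOC690460, there named Krtap10-2, had a median of 953 FPKM, and both were listed at 0 in all striatum libraries. Krtap13-2 (median 619) was the third keratin-associated protein among the 15 most abundant restricted rows. Other rows were Dapl1, an epithelial protein (median 748), Gsdma, a pore-forming gasdermin of skin (419), Serpinb5, the serpin maspin (349), Pkp3, a plakophilin of desmosomes (276), Nlrp10 (207), Lce1f of the late cornified envelope (210) and Lad1, a basement membrane protein (228). LOC683313, in RefSeq the keratin Krt6c, had a median of 209 FPKM with 624 in follicle library 0, and the hair cuticle keratin Krt84 a median of 50.9 with 1212 in that library. Pla2g2e, a secreted phospholipase, reached 132 to 534 FPKM and Acpp, an acid phosphatase, 166 to 378. The joined row of LOC259245 and Mup5, of the major urinary protein family, ranged from 119 to 531 and is one of many near-identical genes. The choice of these rows fixed their direction.

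To show what the promoters of such rows look like, the 100 bases before the RefSeq start (build GRCr8) are given for the most abundant called row of each tissue that has a single listed start off chromosome 18, and for the first 2 restricted rows on the same terms. Capitals mark the letters TATAA where they begin 40 to 20 bases before the start on the strand of the gene, the usual place of a TATA box.
Krtap7-1, follicle, chr11:42227231-42227330, minus strand: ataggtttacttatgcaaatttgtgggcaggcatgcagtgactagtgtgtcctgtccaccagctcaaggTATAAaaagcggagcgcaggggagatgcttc
Krtap13-2, follicle, chr11:41575797-41575896, plus strand: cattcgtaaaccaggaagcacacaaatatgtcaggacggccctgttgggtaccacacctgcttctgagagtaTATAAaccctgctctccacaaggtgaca
LOC690460 (Krtap10-2), follicle, chr20:10888097-10888196, plus strand: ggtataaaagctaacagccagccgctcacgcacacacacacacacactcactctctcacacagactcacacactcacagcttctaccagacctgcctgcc
Pcp4, striatum, chr11:49270086-49270185, plus strand: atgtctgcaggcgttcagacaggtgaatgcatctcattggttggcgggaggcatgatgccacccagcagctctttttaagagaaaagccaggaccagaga
Hpcal4, striatum, chr5:140739808-140739907, plus strand: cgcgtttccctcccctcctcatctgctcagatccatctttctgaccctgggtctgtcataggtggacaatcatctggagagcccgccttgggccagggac
Cldn5, striatum, chr11:95718599-95718698, minus strand: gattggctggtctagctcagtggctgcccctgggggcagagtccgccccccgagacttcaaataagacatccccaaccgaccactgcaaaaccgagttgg

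In Krtap7-1 the TATAA began 31 bases before the start and in Krtap13-2 28 bases, while the other 4 had none in that place. Over the whole window of 300 bases (250 before and 50 after the start), TATAA in that place was held by 13 of 127 windows of restricted follicle rows (10.2%), 6 of 318 of restricted striatum rows (1.89%), 5 of 782 of equal-level rows (0.639%) and 2.01% of the 9746 windows of all tested rows that matched (2.48% of all 33469 windows in the RefSeq table). Since the 3 sets were drawn from the tested rows, those are the background. The median number of CG pairs per window was 4 in restricted follicle rows, 12 in restricted striatum rows and 23 in equal-level rows, against 21 in all tested rows, so that both restricted sets lay below that level and the equal-level set near it. The letters GGGCGG, on either strand, stood in 30.7%, 44.3% and 63.7% of the windows of these 3 sets and in 62.0% of those of all tested rows, so the equal-level share was near that background and the restricted shares were below it. The letters TGACTCA, on either strand, stood in 10.2% of restricted follicle windows, 4.40% of restricted striatum windows, 2.94% of equal-level windows and 3.66% of those of all tested rows. A full cAMP response element, TGACGTCA, stood in 0.787%, 3.15%, 4.35% and 3.26%. In all, 126 of 175 restricted follicle rows, 298 of 403 restricted striatum rows and 746 of 881 equal-level rows matched the RefSeq table, some with several starts. These shares describe letters in windows of unequal base composition and say nothing of binding.

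Markers of medium spiny neurons were higher in striatum, with 1 exception. Of 25 genes listed for them, 24 were higher in striatum and 0 in follicle, with a median difference of 6.78 on the log2(FPKM + 1) scale against 0.30 over all rows. The opioid precursor Penk, a mark of neurons of the indirect pathway, ranged from 708 to 1738 FPKM (median 1278) in striatum. In follicle it was 0 to 0.193 in 5 libraries and 6.43 in library 5, so the groups lay apart, with a difference of 9.63 ± 0.44 (SE) on the log2(FPKM + 1) scale (limma, adjusted p = 7.766e-11). The dopamine receptors Drd2 (median of 138 FPKM) and Drd1 (96.4), the adenosine receptor Adora2a (249) and the peptide precursors Tac1 (256) and Pdyn (95.8) had follicle medians of 0 to 0.0289. Signalling partners of these receptors were abundant as well: the G protein subunit Gng7 had a mean of 532 ± 193 FPKM, the small G protein Rasd2 491 ± 182, and the phosphatase Ptpn5 266 ± 73.3. The 1 member that was not called was the transcription factor Foxp1, at 12.8 to 46.2 FPKM in striatum and 12.7 to 43.2 in follicle. Among 8 tested genes of striatal interneurons, 7 were higher in striatum. Sst, the neuropeptide somatostatin, reached 138 to 281 FPKM, the calcium buffer Pvalb varied 10-fold between striatum libraries (15.04 to 149), and Chat, the enzyme of acetylcholine synthesis, had 6.43 to 10.3 FPKM in striatum against 0.841 to 1.42 in follicle.

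Glial genes were also mostly higher in striatum. All 13 oligodendrocyte genes were higher in striatum, with a median difference of 6.30, and their sum ranged from 6421 to 16150 FPKM over the striatum libraries, highest in libraries 2 and 3. Of 10 astrocyte genes 9 were higher in striatum. Aldoc, the brain form of aldolase, had 803 to 957 FPKM against 15.5 to 19.8, Glul, the glutamine synthetase, 608 to 692 against 33.1 to 46.1, and the filament protein Gfap 119 to 331 against 0 to 1.52. The exception was Gja1, the gap junction protein connexin 43, which is used by astrocytes and by keratinocytes. Gja1 ranged from 149 to 171 FPKM in striatum and from 751 to 1157 in follicle, 5.58-fold higher in follicle by mean (limma, adjusted p = 2.337e-10). With an equal sum Gja1 fell under the 2-fold limit (-0.69). Of 12 genes of microglia and macrophages, 11 were higher in striatum, among them the receptor Csf1r (29.2 to 49.0 FPKM against 0.0486 to 0.317) and the complement gene C1qa (mean of 68.4 ± 13.2 FPKM against 4.11 ± 2.28).

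**Figure D4:**
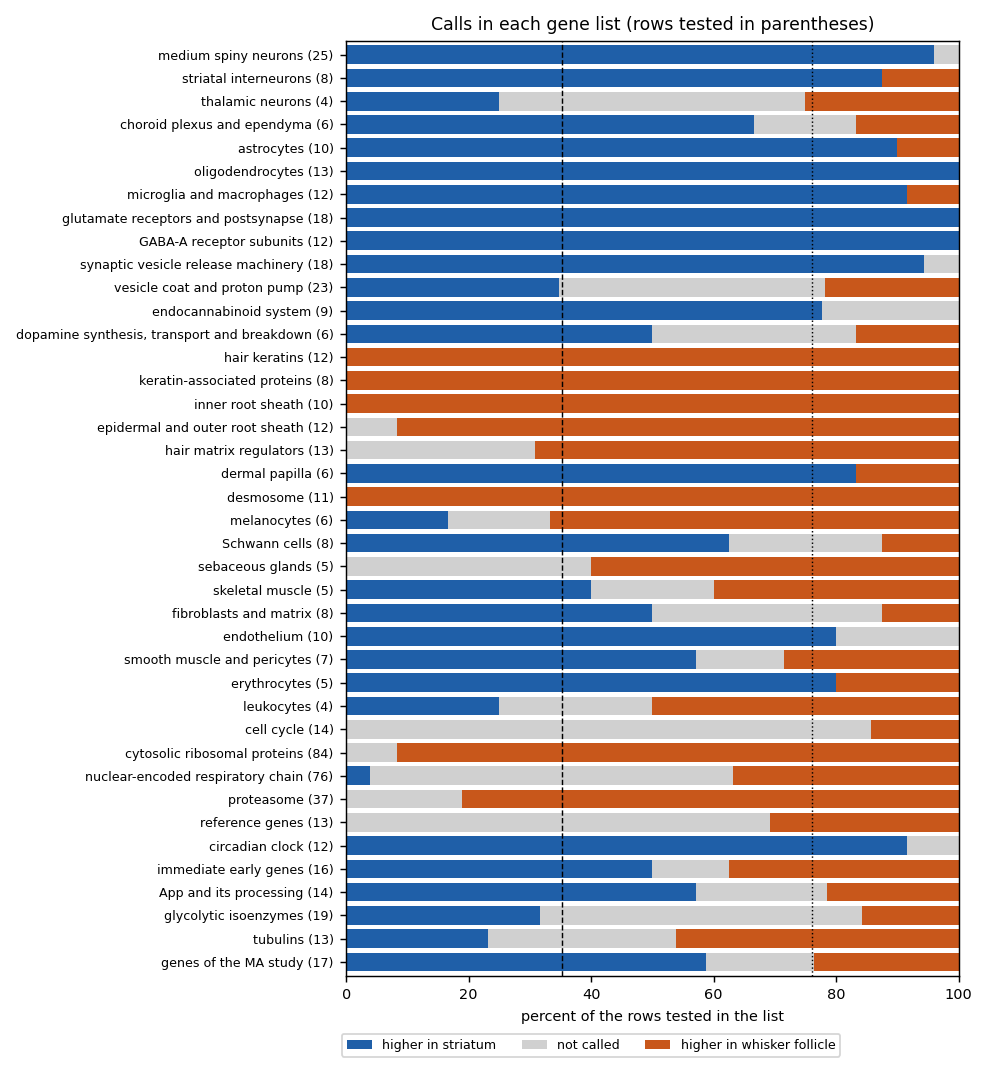
Share of the tested rows of each gene list that were higher in striatum, not called or higher in whisker follicle, for most lists with at least 4 tested rows. The dashed line marks the 35.2% of all rows that were higher in striatum and the dotted line, read from the right, the 23.9% higher in follicle.

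Synaptic genes were higher in striatum in almost every case. All 18 genes of glutamate receptors and the postsynapse were higher in striatum (median difference of 4.56), as were all 12 GABA-A receptor subunits (4.42), whose summed level was 222 to 317 FPKM in striatum and 0 to 1.61 in follicle. Dlg4, the scaffold PSD-95, had a mean of 347 ± 94.1 FPKM, the kinase subunits Camk2a 343 ± 135 and Camk2b 343 ± 94.3, and the NMDA receptor subunit Grin1 118 ± 22.0, each under 1 FPKM on average in follicle. Of 18 genes of vesicle release 17 were higher in striatum. The SNARE protein Snap25 had 343 to 566 FPKM in striatum, and in follicle 0 to 0.215 in 5 libraries and 1.16 in library 5. Another SNARE protein, Vamp2, remained at 52.4 to 91.8 FPKM in follicle against 395 to 506, and Napa, which recycles SNARE complexes in all secretory cells, was not called (136 to 190 against 79.5 to 137), though it was higher in striatum with an equal sum (2.51) or quantile normalization (1.64). Of 23 vesicle coat and proton pump genes, which synapses share with other cells, 8 were higher in striatum, 5 in follicle and 10 not called, with a median of 0.50, close to the shares and the median of all rows. With an equal sum 16 were higher in striatum and 1 in follicle (median 2.22), and with quantile normalization 11 and 1. Within the proton pump, Atp6v0e1 was 18.1-fold higher in follicle (398 to 885 FPKM against 32.1 to 44.6), while Atp6v0c (585 to 974 in striatum, 554 to 1110 in follicle) overlapped. The dynamin of nerve terminals, Dnm1, had a median of 187 FPKM in striatum and 0.443 in follicle.

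In the endocannabinoid system, by which neurons dampen their own inputs, 7 of 9 tested genes were higher in striatum and 0 in follicle. The receptor Cnr1 had 23.1 to 75.2 FPKM in striatum and 0 to 0.472 in follicle, and the lipase Mgll 31.8 to 69.7 and 0.328 to 3.79. Abhd12, a lipase of many tissues, was not called (mean of 97.2 ± 6.64 FPKM against 70.0 ± 10.03), but was higher in striatum with an equal sum (2.25) or quantile normalization (1.08). Of 6 genes of dopamine synthesis, transport and breakdown, 3 were higher in striatum and 1 in follicle. Breakdown enzymes led in striatum, with Maob at 31.4 to 47.2 FPKM against 0 to 0.432. The rate-limiting enzyme Th, whose dopamine cell bodies lie outside the striatum, was low in both: 0.170 to 1.38 FPKM in striatum and 1.93 to 4.71 in follicle, 6.76-fold higher in follicle by mean (limma, adjusted p = 7.928e-06), a call that ended with an equal sum (-0.73). The vesicular transporter Slc18a2 was not called (2.06 to 4.85 FPKM in striatum, 3.67 to 6.25 in follicle).

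On the side of the follicle, nearly all listed genes of the shaft and its sheaths were higher there. All 12 hair keratin rows, all 8 keratin-associated protein rows and all 10 inner root sheath genes were higher in follicle, with median differences of -8.99, -11.96 and -7.35 (striatum minus follicle). The keratin-associated protein rows took 7.67% to 33.7% of the summed FPKM of a follicle library. The hair keratin Krt81 had a follicle median of 10710 FPKM, and Krt85, made early in the shaft, ranged from 56.2 to 4035. The inner root sheath keratins Krt27 (4414 to 8557 FPKM) and Krt25 (2977 to 6585) varied much less between rats than Krt85. Of 12 epidermal and outer root sheath genes, 11 were higher in follicle. The basal keratins Krt14 (3383 to 7552) and Krt15 (2333 to 5738) led, with the suprabasal protein Sbsn (3008 to 12610). Among 13 hair matrix regulators, 9 were higher in follicle and 4 not called. The homeobox factors Dlx3 (116 to 403 FPKM against 0 to 0.0574) and Msx2 (87.7 to 214 against 0.0783 to 0.392) led, and Lef1, a factor of Wnt signalling, overlapped (0.187 to 19.9 in follicle, 1.91 to 4.01 in striatum). All 11 desmosome genes, the junctions that hold epithelia together, were higher in follicle. Perp ranged from 2682 to 3451 FPKM against 0.516 to 1.41, and Jup, which also serves other junctions, from 621 to 1056 against 22.3 to 32.7.

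Other cells that a whisker pad holds left weaker marks. Of 6 melanocyte genes 4 were higher in follicle, at low levels: Tyrp1 had 3.94 to 26.6 FPKM and was listed at 0 in striatum. Kit, which melanocytes share with neurons, was higher in striatum (4.38 to 7.13 against 0 to 0.888). Krt8, of simple epithelia and Merkel cells, had 35.2 to 70.7 FPKM in follicle, but Atoh1, the factor that defines Merkel cells, was listed at 0 and Sox2 was higher in striatum (19.4 to 27.3 FPKM). Sebaceous genes were present (Elovl3 at 98.9 to 216 FPKM, Mgst1 at 72.7 to 177), and 3 of 5 were higher in follicle. Fabp4, a fatty acid carrier best known from adipocytes, reached 2871 to 16620 FPKM, although the 4 other adipocyte rows (Plin1, Adipoq, Lep and Cidec) had follicle means of 0 to 0.0210. Schwann cell genes were not a mark of the follicle, since 5 of 8 were higher in striatum, and Egr2 alone was higher in follicle (17.8 to 23.8 FPKM against 0.913 to 3.76). Of 6 tested dermal papilla genes, 5 were higher in striatum and 1, Crabp1, in follicle, which also turned under that scaling.

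Vessel genes were mostly higher in striatum. Over all rows 35.2% were higher in striatum and 23.9% in follicle, the shares beside which the counts of the small lists below stand. Of 10 endothelial genes 8 were higher in striatum and 5 restricted to it, and Pecam1, present in all endothelium, had 6.23 to 13.1 FPKM in striatum and 0 to 0.498 in follicle. Slc2a1, the glucose transporter of the blood-brain barrier that keratinocytes also use, was not called (61.7 to 89.6 against 130 to 166), but was higher in follicle without striatum library 3 (-1.01) or 5 (-1.02) or follicle library 0 (-1.02). Of 7 tested genes of smooth muscle and pericytes 4 were higher in striatum and 2 in follicle. Rgs5 (13.1 to 30.2 FPKM in striatum, 0 to 0.501 in follicle) and Pdgfrb (3.61 to 6.44, 0 to 0.0740), both of pericytes, were higher in striatum, and the myosin light chain Myl9 (10.4 to 19.2 against 87.1 to 203) and Tagln were higher in follicle. The summed level of the list was higher in follicle, at 123 to 275 FPKM against 55.4 to 88.8. With an equal sum 5 of its genes were higher in striatum and 1 in follicle, and with quantile normalization 3 and 2. Of 8 genes of fibroblasts and matrix 4 were higher in striatum and 1 in follicle. These counts became 7 and 1 with an equal sum, and 2 and 1 with quantile normalization. The collagen Col1a1 was as low in follicle (0.612 to 2.49 FPKM) as in striatum (1.05 to 2.39). Of 5 erythrocyte rows 4 were higher in striatum and 1 in follicle, with wide ranges in follicle. The haemoglobin row Hbb had 124 to 298 FPKM in striatum and 0.392 to 167 in follicle, and the lowest follicle value was that of library 0. Of 4 tested leukocyte genes 1 was higher in striatum and 2 in follicle. S100a8 (32.9 to 229 FPKM against 0.360 to 3.54) and its partner S100a9 (7.18 to 46.7 against 0.840 to 6.54), which keratinocytes also make, were higher in follicle, Cd4 had 4.40 to 9.001 FPKM in striatum and was listed at 0 in follicle, and Cd74 was not called. Of 5 skeletal muscle genes 2 were higher in each tissue, at striatal means of at most 11.5 FPKM, but 2 in striatum and 0 in follicle with an equal sum, and 0 and 3 with quantile normalization. Markers of neighbouring brain regions and of the ventricle wall varied between striatum libraries. Slc17a7, the vesicular glutamate transporter of cortical neurons, stood at 39.9 FPKM in striatum library 1 and at 0.734 to 1.94 in the other 5, and Slc17a6, that of thalamic neurons, at 6.82 in library 4 and at 0.0744 to 0.802 in the other 5. Both were listed at 0 in follicle, and the difference of Slc17a7, 1.85 on the log2(FPKM + 1) scale, fell to 1.15 without striatum library 1. Of 6 genes of choroid plexus and ependyma 4 were higher in striatum, among them Foxj1 of ciliated cells (1.78 to 11.5 FPKM in striatum). The medium spiny neuron genes summed to 3668 FPKM in library 4, the lowest of the 6. The part of the dissection in these values was not tested.

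Programmes that every cell runs differed in level. Of 84 rows of cytosolic ribosomal proteins, 77 were higher in follicle and 0 in striatum, with a median difference of -3.19. With each library scaled to an equal sum 70 remained higher in follicle by number, with a median of -1.52. Proteasome genes followed (30 of 37 higher in follicle, 0 in striatum, median -1.49), but with the scaling to an equal sum 1 was higher in follicle and 4 in striatum, with a median of 0.28. Respiratory chain genes leaned to the follicle in the deposited values. Of 76, 3 were higher in striatum, 28 in follicle and 45 not called, while over all rows 35.2% were higher in striatum and 23.9% in follicle. The median of the list was -0.54, against 0.30 over all rows. It became 0.30 with quantile normalization (-0.04 over all rows) and 1.14 with an equal sum (1.74 over all rows). With quantile normalization 18 were higher in striatum and 6 in follicle, and with an equal sum 45 and 1. Of 14 cell cycle genes 2 were higher in follicle and 12 not called, with a median of -0.52 that became 0.74 with an equal sum. The mitotic kinase Cdk1 had 4.36 to 8.68 FPKM against 0.406 to 2.04 in striatum (-0.85 and no call with an equal sum), whereas Pcna, used in replication and repair, had 47.6 to 55.4 against 31.3 to 39.3, without overlap and under the 2-fold limit.

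The circadian clock was expressed in both tissues and was higher in striatum for 11 of 12 genes, with a median difference of 1.59. The output factor Dbp had 173 to 264 FPKM in striatum and 49.8 to 153 in follicle, and Per3 7.16 to 11.5 and 0.461 to 3.72. Cry1 alone was not called (6.16 to 8.26 against 4.15 to 5.79), though its groups did not overlap. Under quantile normalization 8 were called higher in striatum, and under the scaling to an equal sum all 12 were. Immediate early genes, which cells switch on within minutes of a stimulus, were split: 8 of 16 were higher in striatum and 6 in follicle. With an equal sum 10 were higher in striatum and 3 in follicle, and with quantile normalization 6 and 6. In the deposited values, those higher in follicle were Egr2 and some members of the AP-1 family. The family was split, since its members Fos and Fosb were higher in striatum. Jund had 621 to 2408 FPKM in follicle against 62.6 to 95.3 in striatum, Junb 203 to 346 against 19.01 to 51.4, and Jun 29.6 to 50.3 against 10.2 to 16.1, of which Jun turned under the scaling to an equal sum. Those higher in striatum included Arc (11.0 to 47.0 FPKM against 0.740 to 8.44) and Egr1 (23.7 to 71.0 against 1.27 to 30.0, with overlap). Fos lay at the limit of the call, at 2.85 to 14.1 FPKM in striatum against 0.810 to 4.67 in follicle, with a difference of 1.01 ± 0.33 (SE) on the log2(FPKM + 1) scale (limma, adjusted p = 0.01162), and its highest value was that of striatum library 3, without which the difference was 0.76. The call of Fos also ended without striatum library 0 (1.00, just under the limit) or follicle library 3 (0.99), 4 (0.90) or 5 (0.84).

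In the sodium pump, tubulin and glycolytic families, members were found on either side. Of the beta subunits of the sodium pump, which holds the ion gradients of every cell, Atp1b1 was 4.74-fold higher in striatum by mean FPKM, Atp1b2 had a striatal median of 205 FPKM against 0.0238, and Atp1b3 was 4.04-fold higher in follicle, a call that ended with an equal sum (-0.17). Among 13 tubulin rows, the building blocks of microtubules, 3 were higher in striatum, 6 in follicle and 4 not called, with a median of -0.18 that became 0.71 with quantile normalization and 1.56 with an equal sum. Tubb4a (589 to 1178 FPKM, follicle median of 0) and Tubb3 (216 to 377 against 12.6 to 38.3) were the striatal forms. Tubb6 (27.3 to 143 against 2.06 to 3.41), Tubb4b (449 to 653 against 160 to 251) and Tuba4a (739 to 1448 against 277 to 417) were higher in follicle, where the last pair turned under the scaling to an equal sum, and Tubb5 was at an equal level. Among glycolytic isoenzymes, Aldoa was equal, Aldoc 51.2-fold higher in striatum, Ldhb 9.73-fold higher in striatum and Ldha 7.13-fold higher in follicle. The phosphofructokinase Pfkm had 200 to 237 FPKM in striatum and 7.14 to 14.8 in follicle, and the enolase Eno1 77.0 to 121 and 223 to 574. The call of Eno1 ended with an equal sum (-0.06) and with quantile normalization (-0.95). Of 19 such rows, 6 were higher in striatum, 3 in follicle and 10 not called, with a median of 0.31. Over all rows 35.2% were higher in striatum and 23.9% in follicle, with a median of 0.30. Neither share of the glycolytic rows exceeded that of all rows. With an equal sum 14 were higher in striatum and 1 in follicle (median 1.95, against 1.74 over all rows). Tubulin and glycolytic genes have many processed copies, so reads may be shared between them.

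**Figure D5:**
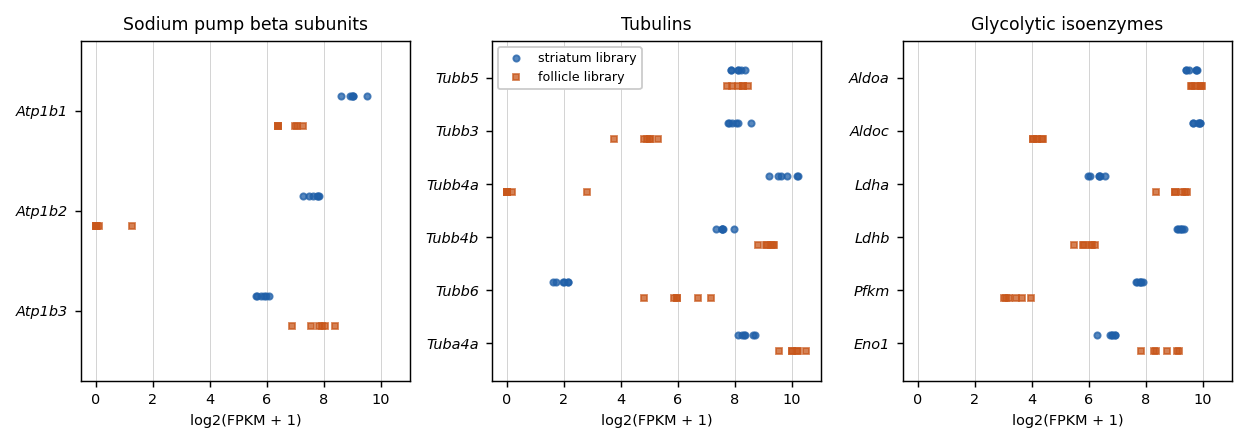
FPKM of 3 sodium pump beta subunits, 6 tubulins and 6 glycolytic isoenzymes in each library, on a log2(FPKM + 1) axis, with circles for striatum and squares for follicle libraries. Tubb5 and Aldoa overlap between the tissues while Atp1b2, Tubb4a and Aldoc lie apart, and the single follicle library with raised Atp1b2 and Tubb4a is library 5.

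From the study of MA, 17 genes that it names were listed here, and it selected more genes than these. Most of the 17 it picked with these libraries, while Drd1, Bdnf and Th were assessed as proteins in striatum. Their baseline levels are given as a description. Of the 17, 10 were higher in striatum, 4 in follicle and 3 not called. Over all rows 35.2% were higher in striatum and 23.9% in follicle, so the follicle share was near that of all rows. With an equal sum 12 of the 17 were higher in striatum and 1 in follicle. App, the amyloid precursor protein, was strongly expressed in both tissues, at 408 to 568 FPKM in striatum and 95.6 to 244 in follicle. Uchl1, a neuronal ubiquitin hydrolase, had 550 to 1047 FPKM and 4.09 to 42.5, and the clathrin adaptor subunit Ap2a1 43.4 to 74.9 and 8.90 to 35.8. Per1 of the clock had 11.3 to 18.0 FPKM in striatum against 1.36 to 7.94. The receptor Gria2, in a row joined with Mir2985, had 38.4 to 164 FPKM and follicle values of at most 0.176. Fosb was low in both (1.14 to 4.10 FPKM against 0.0435 to 0.556). Higher in follicle beside Junb and Th were Fosl2, at 2.50 to 53.2 FPKM against 1.41 to 3.79, with its highest value in library 0 and no call with an equal sum (-0.38), and Tagln, an actin-binding protein of smooth muscle, at 22.4 to 68.9 against 10.6 to 21.9, which turned with an equal sum. Ddit4, a stress-induced inhibitor of growth signalling, was not called, although its groups barely overlapped (33.05 to 57.6 against 55.4 to 79.0), and the neurotrophin Bdnf stood at 0 to 0.833 FPKM in striatum and 0.757 to 1.77 in follicle. Of the other members of the App pathway, Aplp1 (710 to 859 FPKM against 18.6 to 23.7) and Mapt (89.6 to 104 against 0.187 to 1.35) were higher in striatum. The 2 proteases that cut App at the beta site stood on opposite sides, Bace1 at 14.8 to 23.1 FPKM in striatum and 0 to 1.81 in follicle, and Bace2 at 1.44 to 1.96 and 38.8 to 61.4. Over that list of 14 tested genes, 8 were higher in striatum and 3 in follicle, 11 and 1 with an equal sum, and 9 and 2 with quantile normalization.

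Rows at an equal level were defined by a 95% confidence interval of the difference within a factor of 1.5 in either direction and a mean of at least 5 FPKM in both tissues. This held for 881 rows (7.65% of all, and 17.2% of the 5112 rows with a mean of at least 5 in both). Of those 5112 rows, 748 were called higher in striatum and 1451 in follicle. The 10 most abundant equal rows were Actb, Aldoa, Atp5a1, Timm8b, Rtn3, Ppp1ca, Ndufb9, Mlf2, Tubb5 and Cox5b, genes of the cytoskeleton, glycolysis, the respiratory chain, mitochondrial import, the endoplasmic reticulum and a protein phosphatase. Actb had 1031 to 1372 FPKM in striatum and 657 to 1986 in follicle, with a difference of -0.07 (95% interval from -0.58 to 0.45). Cox5b, a subunit of cytochrome oxidase, had 263 to 294 and 219 to 278, with 0.12 (from -0.11 to 0.34). For Atp5a1, a subunit of ATP synthase, the difference was 0.06 (from -0.21 to 0.32). All 10 were also equal with a common median and 0 of 10 with quantile normalization or with each library scaled to an equal sum, so equality holds for the scale of the deposited values. Of 13 tested reference genes often used to normalize, 4 were higher in follicle, 0 in striatum and 2 at an equal level, with a median of -0.77 that became -0.03 with quantile normalization and 1.01 with an equal sum. Spread differed between tissues: over the 5112 rows the median coefficient of variation was 11.3% in striatum and 21.6% in follicle, or 15.9% without follicle library 0.

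The same comparison in the MA self-administered rats of the series, which are other animals and whose libraries played no part in the choice above, was fitted with limma in the same way. Of the rows called in SA, 3644 (90.0%) were called higher in striatum and 2401 (87.1%) higher in follicle in the 12 MA libraries as well. Of the restricted rows, 310 of 403 (76.9%) and 137 of 175 (78.3%) met the same limits there. In all, 548 rows met the limits for striatum and 197 those for follicle in the MA libraries. Thus some rows restricted there were not restricted in SA.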

How the data were processed

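RNA of striatum and whisker follicle from 6 saline rats was sequenced after polyA capture. The authors deposited 1 table of FPKM for 24 libraries, of which the 12 SA libraries were compared and the 12 MA libraries served as other animals. All 24 columns were mapped to a group and 0 left out. For the alignment, the methods name TopHat2 while the submitters' processing notes name STAR 2.6.0c. Both give Cufflinks (2.2.1 in the notes) and build rn6. Library preparation did not keep strand, so reads of overlapping antisense genes cannot be told apart. FPKM hold no read counts, so counting errors are not known, and near-identical copies share reads.

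Tissues were compared with limma 3.58.1 (R 4.3.3, eBayes with a trend) on log2(FPKM + 1) over 11509 rows, without pairing, and p-values were adjusted by Benjamini-Hochberg. The procedure was tested on simulated data. Other steps used Python 3.11.15, pandas 2.3.3 and scipy 1.17.1. The members and gene lists were chosen with earlier results of these data known. Genes named are the 15 most abundant and the 15 most abundant restricted rows per tissue, and the 10 most abundant equal rows. Also named are the genes listed from the MA study and up to 5 members per list with the highest mean. Members on the side opposite to their list are named too. A few of these are not reported here. Other list members were added after their values were seen. Other scalings, pseudocounts, limits and the removal of single libraries were tried. The labels give separate rats, and nothing says which column belongs to which rat.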

Additional observations from a re-analysis of the deposited data

Results flagged for a closer look

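Of 354 groups of 6 libraries of named genes, 78 held a library that lay apart from the other 5 by the gap between it and its nearest neighbour relative to the whole range (Dixon's criterion). For normally distributed values the criterion flags about 1 in 20 groups by chance. That rate does not hold here, since several groups held mostly values of 0. Some genes were also named after their values were seen, so the 78 cannot be set against it. In each case below the value is set against the other 5 libraries of the tissue. Of the 78, 30 fell in follicle library 5, 21 in striatum library 2 and 13 in follicle library 0.

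In follicle library 5 the raised rows were those of striatal cells. Of myelin and glial genes, Mbp stood at 49.9 FPKM against at most 5.80, Gfap at 1.52 against at most 0.443, Atp1b2 at 1.44 against at most 0.0885 and Maob at 0.432 against 0. Of medium spiny neuron and interneuron genes, Penk stood at 6.43 FPKM against at most 0.193, Ppp1r1b at 12.4 against at most 4.83, Adora2a at 1.08 against at most 0.296, Drd1 at 0.413 against at most 0.0572, Drd2 at 0.522 against 0, Tac1 at 1.39 against 0 and Pdyn at 0.254 against 0. Of the same group of cells, Gng7 stood at 2.25 FPKM against at most 0.344, Rasd2 at 1.93 against at most 0.313, Ptpn5 at 0.944 against 0 and Sst at 1.95 against 0. Of synaptic genes, Hpca stood at 8.90 FPKM against at most 0.530, Camk2a at 1.44 against 0, Camk2b at 2.33 against at most 0.455, Snap25 at 1.16 against at most 0.215, Dnm1 at 1.84 against at most 0.622, Grin1 at 0.633 against at most 0.188 and Cnr1 at 0.472 against at most 0.102. Of receptor genes, the joined row of Gria2 and Mir2985 stood at 0.176 FPKM against at most 0.0284 and Htr2c at 0.0459 against 0. Of neuronal cytoskeleton and other genes, Tubb4a stood at 6.12 FPKM against at most 0.130, Mapt at 1.35 against at most 0.565 and Mpped1 at 0.0636 against 0. Of vessel genes, Pecam1 stood at 0.498 FPKM against at most 0.129, Rgs5 at 0.501 against 0 and Pdgfrb at 0.0740 against 0.

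In striatum library 2 the raised rows were those of the hair. Of keratin-associated proteins, Krtap7-1 stood at 38.6 FPKM against at most 1.05, Krtap15-1 at 19.1 against at most 0.681, Krtap16-5 at 13.4 against at most 0.180, Krtap14 at 6.86 against at most 0.210 and Krtap13-2 at 0.0727 against 0. Of hair keratins, the joined row of Krt31, Krt33a, Krt33b and Krt34 stood at 17.7 FPKM against at most 0.674, Krt86 at 10.6 against at most 0.438, Krt81 at 5.14 against at most 0.203, Krt85 at 1.08 against at most 0.237 and Krt84 at 0.0939 against 0. Of keratins of the root sheaths, Krt25 stood at 1.15 FPKM against at most 0.403, Krt27 at 1.26 against at most 0.120, Krt14 at 0.879 against at most 0.0534 and Krt15 at 0.951 against 0. Of other follicle genes, S100a3 stood at 7.70 FPKM against at most 3.90, Mt4 at 7.04 against at most 0.620, Lgals7 at 2.31 against at most 0.589, Elovl3 at 0.0416 against 0, Serpinb5 at 0.0294 against 0 and Gsdma at 0.0258 against 0. The enolase Eno1 stood at 77.0 FPKM against at least 105.

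Follicle library 0 was the highest for 3 keratins: Krt84 stood at 1212 FPKM against at most 67.9, Krt85 at 4035 against at most 1038 and LOC683313 at 624 against at most 249.7. Of transcription factors, Fosl2 stood at 53.2 FPKM against at most 20.5, Egr1 at 30.0 against at most 8.61, Foxp1 at 43.2 against at most 21.4 and Lef1 at 19.9 against at most 6.86. Of other rows, Tyrp1 stood at 26.6 FPKM against at most 11.7, Per3 at 3.72 against at most 1.68, Mgll at 3.79 against at most 1.07, Bace1 at 1.81 against at most 0.561 and Kit at 0.888 against at most 0.153. The sebaceous gene Mgst1 stood at 72.7 FPKM against at least 160.3. In follicle library 4, Crabp1 stood at 233 FPKM against at most 117.

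In striatum library 4 thalamic and other rows were high: Slc17a6 stood at 6.82 FPKM against at most 0.802, Th at 1.38 against at most 0.488, Slc18a2 at 4.85 against at most 3.04 and Chat at 10.3 against at most 7.02. In the same library Zwint stood at 1660.0 FPKM against at most 1216, Tubb3 at 377 against at most 276, Tubb4b at 251 against at most 189 and Fam101a at 2.06 against at most 0.926, whereas Camk2n1 stood at 979 FPKM against at least 1632. In striatum library 1, Slc17a7 stood at 39.9 FPKM against at most 1.94, in library 3 Fos stood at 14.1 FPKM against at most 5.62 and Nlrp10 at 0.0285 against 0, and in library 0 Izumo1 stood at 0.216 FPKM against at most 0.113. The depth behind values as low as those of Nlrp10, Elovl3 and Gsdma in striatum is not known. How the values that lay apart arose was not tested.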

How the results depend on the processing

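The balance between tissues depended most on the scaling. With each library scaled to an equal sum, 8325 rows were higher in striatum, 1134 in follicle, 396 at an equal level, 673 restricted to striatum and 98 to follicle. Named genes that turned to higher in striatum under it, with their difference on the log2(FPKM + 1) scale, were Actb (1.71), Aldoa (1.60), Apoe (1.02), Atp6v0c (1.56), Crabp1 (0.10), Cst3 (0.46), Ddit4 (1.26), Jun (0.22), Lef1 (1.30), Mlf2 (1.74), Ndufb9 (1.65), Pcna (1.17), Rtn3 (1.60), Tagln (0.23), Tuba4a (0.11), Tubb4b (0.20) and Tubb5 (1.74), which follows from the larger sums of the follicle libraries. With quantile normalization those that turned were Actb (2.99), Aldoa (2.32), Apoe (3.09), Atp6v0c (2.06), Cst3 (2.37), Mlf2 (1.33), Ndufb9 (1.2505), Rtn3 (1.16), Tmsb4x (1.44) and Tubb5 (1.19), of which the cause was not tested. Calls of higher in follicle that ended with an equal sum were those of Atp1b3 (-0.17), Cdk1 (-0.85), Eno1 (-0.06), Fosl2 (-0.38), Gja1 (-0.69), Th (-0.73) and Tmsb4x (-0.42), and calls that ended with quantile normalization were those of Eno1 (-0.95), Fos (0.25), Fosb (0.73), Tuba4a (-0.13) and Tubb4b (-0.42). Among genes not called above, Foxp1 (2.17), Col1a1 (1.43) and Cry1 (2.04) were higher in striatum with an equal sum, and Slc18a2 (-1.26), Cd74 (-1.16) and Bdnf (-1.45) higher in follicle with quantile normalization. A fold limit of 4 left 2147 rows higher in striatum and 1375 in follicle. A limit of exactly 0 in the other tissue left 199 and 81 restricted rows, a limit of 0.5 FPKM gave 1031 and 378, and narrower limits around equality left 139 equal rows. Leaving out 1 library at a time gave 3981 to 4179 rows higher in striatum, 2717 to 2872 higher in follicle, 405 to 604 and 176 to 201 restricted, and 779 to 963 equal. The removal of striatum library 2 and follicle library 5 together, chosen after seeing the data, gave 617 and 209 restricted rows. Over 174 named genes, 2950 recomputed values held 2877 with the same direction and side of the threshold, 27 reversed, 18 weaker and 28 stronger. No paired analysis was possible because the columns carry indices that cannot be tied to the numbered rats. A block by rat was therefore not run. Values of genes under 1 FPKM are limited by a depth that is not known.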
